A study of Mus musculus with 6 samples.

Results

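The endoplasmic reticulum (ER) folds, modifies and exports the proteins a cell secretes or places on its surface, and 44 genes of this work were examined in sorted mouse pancreatic tumour cells. They were chosen by name as chaperones and folding enzymes of the ER, sensors and targets of the unfolded protein response, and genes of the channel through which proteins enter the ER. The choice was made with earlier results of these data known. Of the 44 listed genes, 43 were matched by Ensembl identifier among the 25978 genes measured, and Agr3 was not analysed here. All 43 passed the filter on low values, and each lay above it in both groups.

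When unfolded proteins build up in the ER, they are detected by 3 kinds of sensor in its membrane. IRE1 (encoded by Ern1 and, in mucosal epithelia, Ern2) splices the Xbp1 messenger RNA, PERK (Eif2ak3) slows translation and favours that of ATF4, and ATF6 is cut in the Golgi to release a transcription factor. XBP1 and ATF6 raise chaperones and degradation genes, while ATF4 and CHOP (Ddit3) raise genes of amino acid supply and of cell death. The pancreas has one of the most active secretory pathways of the body, and its acinar cells depend on Xbp1.

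RNA was sequenced from 6 libraries of YFP-positive cells of primary tumours, 3 sorted as EpCAM+ and 3 as EpCAM- by a surface adhesion protein of epithelial cells. All came from KPCY mice of C57BL/6 background at 5 to 7 weeks of age, whose genotype includes Pdx1-Cre, Trp53fl/fl and Rosa26LSL-YFP in both groups, with no added treatment in the labels. Pdx1-Cre acts in the pancreatic lineage, so that its normal cells can carry YFP as well as tumour cells. The series text speaks of biological replicates without saying whether same-numbered libraries came from 1 tumour. A p-value here sets the difference between groups only against the scatter among these samples, part of which may be technical. It treats the 6 libraries as independent, which the labels do not settle. The comparison asks how cells that carry EpCAM differ from cells that do not.

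Levels are the authors' normalised log2 values per gene, and differences are EpCAM- minus EpCAM+ on that scale. The transform is a point not given in the sources used here, and the depth of each library is unknown. Values ran from -1.52 to 20.05 over the 6 libraries. The sort showed in the markers, since 12 of 12 epithelial markers fell in EpCAM- libraries and 8 of 9 mesenchymal markers rose. Epcam stood at 15.06, 14.90 and 14.89 in EpCAM+ replicates 1, 2 and 3 and at 8.42, 8.22 and 7.22 in EpCAM- replicates 1, 2 and 3. In bulk RNA, fewer cells of a type and less RNA per cell cannot be told apart.

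Some members carry the recognition element of the unfolded protein response in their promoters. These sequences are shown because several chaperone genes, whose levels follow, are among those members, as are Pdia6 and Syvn1. Not every chaperone member carries the element. The ER stress response element (ERSE) is CCAAT, then 9 bases of any kind, then CCACG, bound by the general factor NF-Y at one end and by ATF6 or XBP1 at the other. It was searched on both strands of RefSeq promoter windows (build GRCm38.p6) of 250 bases before to 50 after the start site. Windows were found for 37 of the 44 members, and none for Ern2, Atf6, Creb3l1, Manf, Fkbp10, Sec61a1 and Ssr2. The element was present in 8 of the 37 members and in 37 of all 27025 genes with a window, or 0.137%. Positions count from the RefSeq start site, with -1 the base before it, and capitals mark the fixed letters of the element as they read on the gene's strand, CCAAT and CCACG or their reverse complements.
Hspa5, chr2:34772020-34772048, plus strand, -70 to -42: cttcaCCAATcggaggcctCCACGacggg
Hsp90b1, chr10:86705523-86705666, minus strand, -222 to -79: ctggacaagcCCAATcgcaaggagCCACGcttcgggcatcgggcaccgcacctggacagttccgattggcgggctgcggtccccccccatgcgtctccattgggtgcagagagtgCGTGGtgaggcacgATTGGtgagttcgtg
Calr, chr8:84847065-84847103, minus strand, -172 to -134: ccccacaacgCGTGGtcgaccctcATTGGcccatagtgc
Canx, chr11:50325790-50325828, minus strand, -155 to -117: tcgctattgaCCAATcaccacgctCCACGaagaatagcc
Pdia6, chr12:17266481-17266519, plus strand, -108 to -70: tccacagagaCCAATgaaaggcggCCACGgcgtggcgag
Dnajc3, chr14:118937817-118937855, plus strand, -115 to -77: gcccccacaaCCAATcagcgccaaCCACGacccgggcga
Creld2, chr15:88819510-88819548, plus strand, -136 to -98: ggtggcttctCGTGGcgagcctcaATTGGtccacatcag
Syvn1, chr19:6046522-6046560, plus strand, -54 to -16: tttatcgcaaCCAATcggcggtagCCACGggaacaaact

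Hsp90b1 held 2 copies of the element and the other 7 genes 1 each. Across these genes the first base of a copy lay between -212 and -44. A second form, ERSE-II (ATTGG, 1 base of any kind, CCACG), was found in Herpud1 and Dnajb11 and in 12 of the 27025 genes (0.0444%). The amino acid response element that ATF4 and its partners bind was searched as TGATGCAA, and was present in Chac1 and Herpud1 and in 279 of all genes (1.03%). A further element, the unfolded protein response element TGACGTGG, was present in 193 genes (0.714%), none of them a member. The 4 motifs share letters in part, but no match of one overlapped a match of another in a member's window. A match to these letters is a description of the sequence and does not show that a factor binds there. The stretches with TGATGCAA are shown because Chac1, one of its genes, rose in EpCAM- cells while Herpud1, which carries both kinds of element, did not pass the test. Capitals mark the matches, which for TGATGCAA read TTGCATCA on the gene's strand.
Chac1, chr2:119351039-119351066, plus strand, -203 to -176: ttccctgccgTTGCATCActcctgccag
Herpud1, chr8:94386307-94386397, plus strand, -122 to -32: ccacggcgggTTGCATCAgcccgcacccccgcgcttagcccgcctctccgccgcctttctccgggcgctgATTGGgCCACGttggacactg

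**Figure D1:**
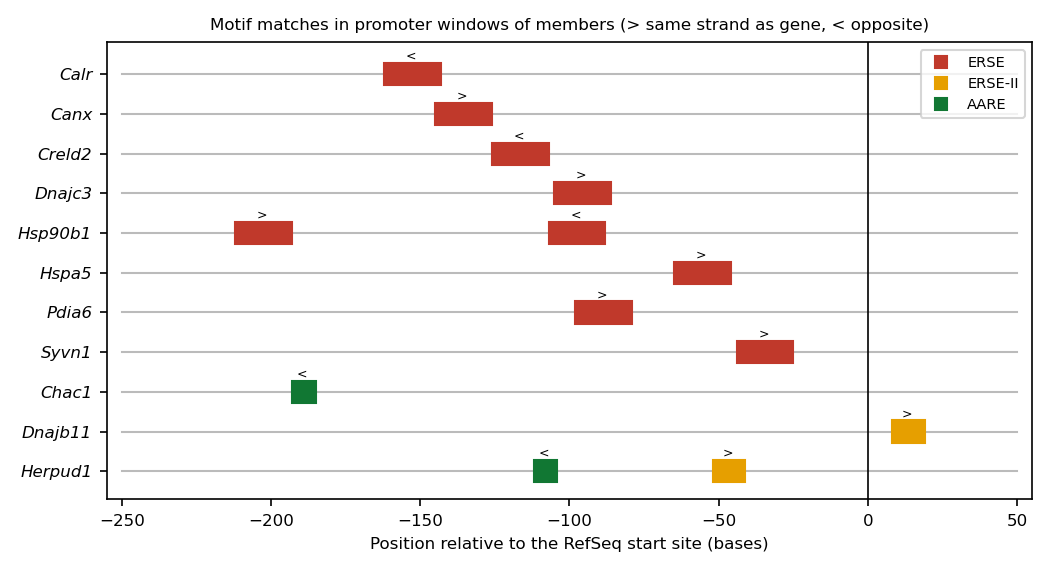
Motif matches in the promoter windows of the 11 members that hold one, by position relative to the RefSeq start site in bases; red boxes are ERSE, orange ERSE-II and green TGATGCAA (AARE), and arrowheads give the strand relative to the gene. Every ERSE match lies before the start site, and the ERSE-II match of Dnajb11 lies after it.

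Of the 43 members, 14 differed between the groups past the test (32.6%), against 6850 of 15783 tested genes (43.4%). The test was limma's, with p-values adjusted by Benjamini and Hochberg's method and a threshold of 0.05. Of the 14, 8 rose and 6 fell in EpCAM- cells, where 20.3% of all tested genes rose and 23.1% fell. A difference of at least 1 log2 unit was reached by 4 that rose, Fkbp10, Serpinh1, Ddit3 and Chac1, and by 5 that fell, Agr2, Ern2, Creb3l4, Eif2ak3 and Xbp1. The share past the test at that size was 23.9% over all tested genes, with 9.36% rising and 14.5% falling. The median difference was 0.022 over the members and 0.0043 over all tested genes. Without EpCAM+ replicate 1 and EpCAM- replicate 3, the libraries whose fibroblast markers stood apart from their group, 8 members passed, 2 that rose and 6 that fell. Leaving out EpCAM+ replicate 1 alone left 5 that rose.

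**Figure D2:**
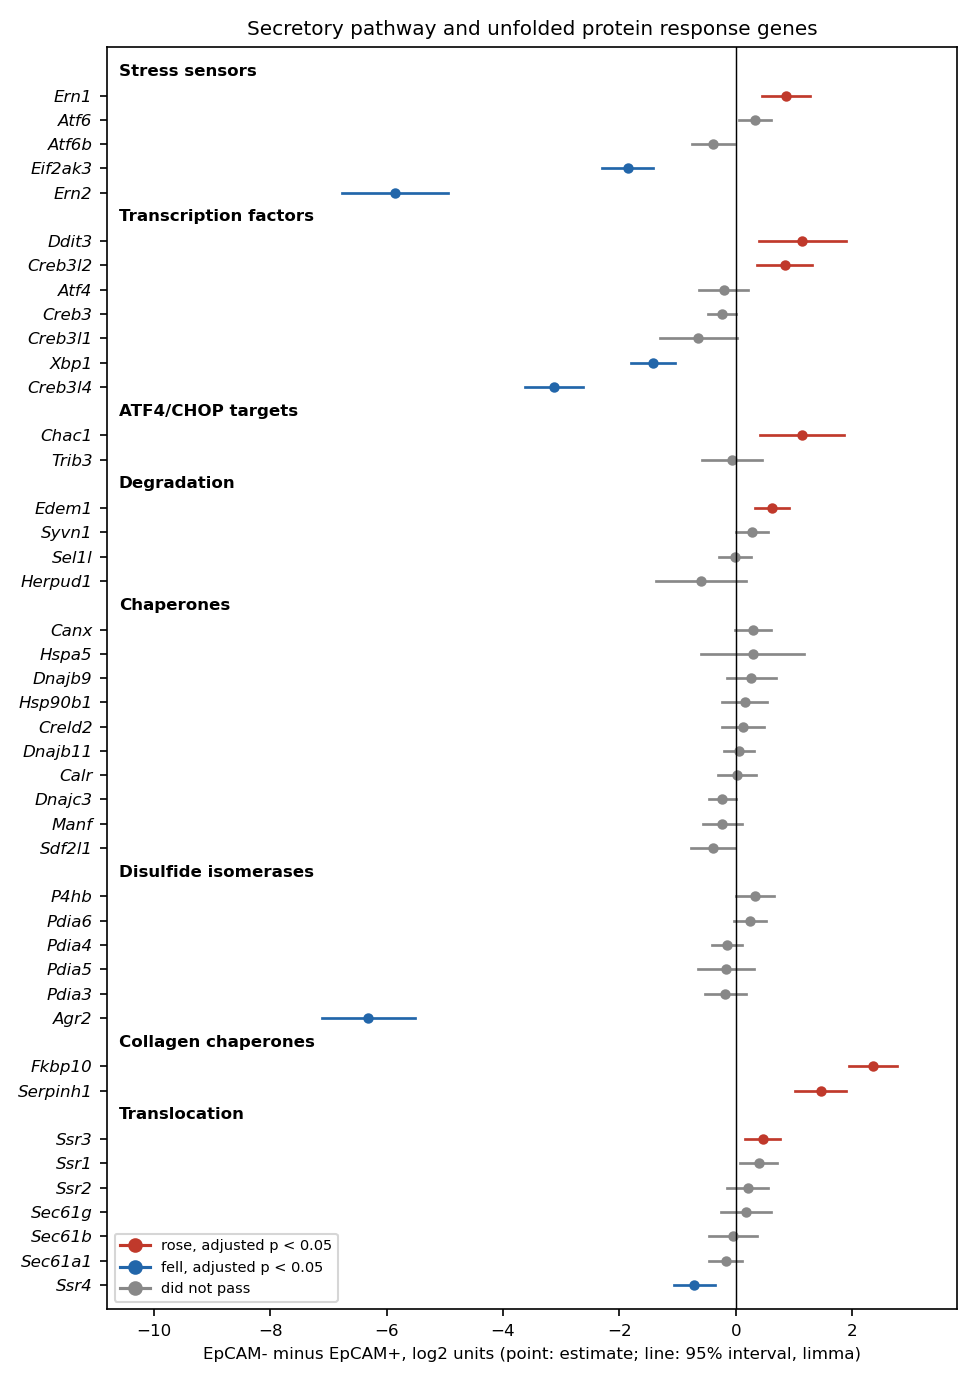
Difference between EpCAM- and EpCAM+ cells for the 43 members in log2 units, ordered by role; points are limma estimates, lines their 95% intervals, and colour gives the call. The 10 chaperones lie between -0.40 and 0.30, while Agr2 and Ern2 lie near -6 and the collagen chaperones Fkbp10 and Serpinh1 on the right.

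Among the stress sensors, the paralogues of IRE1 moved in opposite directions. Ern2, the IRE1 form of mucosal epithelia (ENSMUSG00000030866, GRCm38 chromosome 7, 122169893 to 122186207), stood at 10.19, 9.75 and 10.17 in EpCAM+ replicates 1, 2 and 3 and at 5.07, 3.66 and 3.79 in EpCAM- replicates 1, 2 and 3. Its groups were far apart, with EpCAM- replicate 1 the highest of its group. The difference was -5.86 ± 0.39 (SE) with a limma adjusted p of 4.15e-05, or 58.2-fold lower. Ern1, the form found in most cells, stood at 11.45, 11.51 and 11.43 in EpCAM+ and at 12.01, 12.70 and 12.25 in EpCAM- replicates 1, 2 and 3. All EpCAM- libraries lay above all EpCAM+ libraries, and Ern1 rose by 0.86 ± 0.18 (SE, limma adjusted p = 0.00726). With EpCAM+ replicate 1 and EpCAM- replicate 3 both left out it no longer passed (adjusted p = 0.0525), and its adjusted p ranged from 0.00184 to 1 over all 18 alternatives, the highest with a minimum fold change.

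Eif2ak3, which encodes the sensor kinase PERK (chromosome 6, 70844515 to 70905245), fell. It stood at 12.62, 12.96 and 12.74 in EpCAM+ and at 10.53, 11.10 and 11.11 in EpCAM- replicates 1, 2 and 3. The groups did not overlap, and the difference was -1.86 ± 0.18 (SE, limma adjusted p = 0.000264), or 3.63-fold lower. Gm43292, an annotated gene on the opposite strand that shares exon sequence with Eif2ak3, fell by 2.07 on the log2 scale, and the use of strand in counting is unstated in these sources. The ATF6 sensors did not pass. Atf6 had a difference of 0.33 (adjusted p = 0.0576) and Atf6b, its paralogue, -0.39 (adjusted p = 0.0776), although neither gene's groups overlapped, as held for 56.3% of all tested genes. Atf6 passed without EpCAM- replicate 2 (adjusted p = 0.0378), with a range from 0.0197 to 1 over the alternatives. Atf6b passed with array weights (adjusted p = 0.027, range from 0.027 to 1).

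Of 7 transcription factors of the response, 2 rose and 2 fell (57.1%, beside 43.4% of all tested genes). Xbp1, whose spliced product drives genes of ER expansion (chromosome 11, 5520659 to 5525893), fell. Its log2 level was 12.65, 12.32 and 12.87 in EpCAM+ and 11.09, 11.13 and 11.36 in EpCAM- replicates 1, 2 and 3. The groups did not overlap, and the difference was -1.42 ± 0.16 (SE, limma adjusted p = 0.00047), or 2.67-fold lower. Levels per gene do not tell spliced from unspliced Xbp1. Rtcb, the ligase that joins the Xbp1 exons, fell by 0.54 on the log2 scale (adjusted p = 0.0226), and was chosen after its value was seen.

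Members of the CREB3 family, membrane-bound factors released in the Golgi like ATF6, did not move together. Creb3l4, known from prostate and other secretory epithelia (chromosome 3, 90237500 to 90243512), stood at 8.59, 8.45 and 9.02 in EpCAM+ and at 5.54, 5.76 and 5.38 in EpCAM- replicates 1, 2 and 3. Its groups were apart by more than 2 log2 units, and it fell by 3.13 ± 0.21 (SE, limma adjusted p = 4.74e-05). Creb3l2, which in cartilage raises the vesicle coat gene Sec23a, stood at 11.86, 12.23 and 12.14 in EpCAM+ and at 12.49, 13.13 and 13.13 in EpCAM- replicates 1, 2 and 3. It rose by 0.84 ± 0.20 (SE, limma adjusted p = 0.0136) with no overlap. Leaving out both EpCAM+ replicate 1 and EpCAM- replicate 3 ended that call (adjusted p = 0.121, range over the alternatives from 0.00182 to 1). Sec23a itself rose by 1.25, and whether its rise is linked to that of Creb3l2 was not tested.

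The other CREB3 genes did not pass. Creb3l1, known for its part in bone matrix secretion, stood at 10.85, 10.83 and 11.40 in EpCAM+ and at 9.86, 10.37 and 10.91 in EpCAM- replicates 1, 2 and 3. Its groups overlapped through EpCAM- replicate 3, the highest of EpCAM-, and its difference of -0.64 (adjusted p = 0.107) passed without that library at -0.91 (adjusted p = 0.028, range over the alternatives from 0.0163 to 1). Creb3, the founding member, had -0.24 (adjusted p = 0.0976) and passed without EpCAM- replicate 1 (adjusted p = 0.0478, range from 0.0382 to 1). Creb3l3, the liver and gut form outside the 44 genes, passed the filter on low values through EpCAM+ alone, with a mean log2 level of 5.46 there and 3.18 in EpCAM-.

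In the PERK branch below its kinase, Ddit3 and Chac1 rose and Atf4 did not pass. Atf4, a factor controlled largely at translation, stood at 13.19, 13.47 and 13.38 in EpCAM+ and at 12.78, 13.39 and 13.25 in EpCAM- replicates 1, 2 and 3. The groups overlapped, with a difference of -0.21 (95% interval from -0.63 to 0.22, adjusted p = 0.385). Replicate 1 was the lowest of each group for Atf4, as it was for Ddit3, Chac1, Trib3, Herpud1 and Hspa5. The same held for Eif2ak3, Creb3l2, Edem1, Sel1l, Syvn1, Dnajb9 and Calr. In EpCAM+, replicate 1 was the lowest for 46.5% of the members and 28.6% of all tested genes. In EpCAM- it was the lowest for 37.2% and 34.1%.

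Ddit3, which encodes the stress-induced factor CHOP (chromosome 10, 127290774 to 127296288), stood at 9.37, 10.02 and 9.90 in EpCAM+ and at 10.25, 11.43 and 11.04 in EpCAM- replicates 1, 2 and 3. EpCAM- replicate 1 lay just above the highest EpCAM+ library, and Ddit3 rose by 1.15 ± 0.31 (SE, limma adjusted p = 0.0234). Its call was lost without EpCAM+ replicate 1 (adjusted p = 0.0733), EpCAM+ replicate 3 (0.0586), EpCAM- replicate 2 (0.0593) or EpCAM- replicate 3 (0.0665), and its adjusted p ranged from 0.0019 to 1 over the alternatives. Ddit3 shares exon sequence with Mars on the opposite strand, whose difference was 0.19 (adjusted p = 0.585), and with a second annotated Ddit3 entry on its own strand, so its level is uncertain to that extent.

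Chac1, an enzyme that breaks down glutathione and is raised by ATF4 and CHOP, stood at 7.31, 7.34 and 7.70 in EpCAM+ and at 7.91, 8.85 and 9.02 in EpCAM- replicates 1, 2 and 3. EpCAM- replicate 1 lay nearest to the EpCAM+ libraries, and the groups did not overlap. Chac1 rose by 1.14 ± 0.30 (SE, limma adjusted p = 0.021), a call that ended without EpCAM+ replicate 1 (0.0652) or 2 (0.0646) or EpCAM- replicate 2 (0.0644) or 3 (0.0623). Its adjusted p ranged from 0.0015 to 1 over the alternatives. Trib3, a pseudokinase raised by the same factors, stood at 8.57, 8.89 and 9.05 in EpCAM+ and at 8.36, 9.02 and 8.93 in EpCAM- replicates 1, 2 and 3, and did not pass (-0.07, adjusted p = 0.818). The 2 targets of the list thus differed in their calls, and the difference between them was not tested.

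Of the 4 degradation members, which extract misfolded proteins from the ER for the proteasome, 1 rose (25%, beside 43.4% of all tested genes past the test). Edem1, a lectin that hands over misfolded glycoproteins, rose by 0.62 ± 0.12 (SE, limma adjusted p = 0.00604), a call that ended with EpCAM+ replicate 1 and EpCAM- replicate 3 both left out (adjusted p = 0.0745, range from 0.00302 to 1). The ubiquitin ligase Syvn1 had 0.27 (adjusted p = 0.0997) and passed without EpCAM- replicate 1 (adjusted p = 0.0216, range from 0.0216 to 1), and its partner Sel1l had -0.01 (adjusted p = 0.949). Herpud1, which organises the ligase complex, stood at 11.11, 11.32 and 11.66 in EpCAM+ and at 10.04, 10.89 and 11.35 in EpCAM- replicates 1, 2 and 3. In both groups it was lowest in replicate 1 and highest in replicate 3, and its difference of -0.60 did not pass (adjusted p = 0.178, range over the alternatives from 0.0361 to 1).

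**Figure D3:**
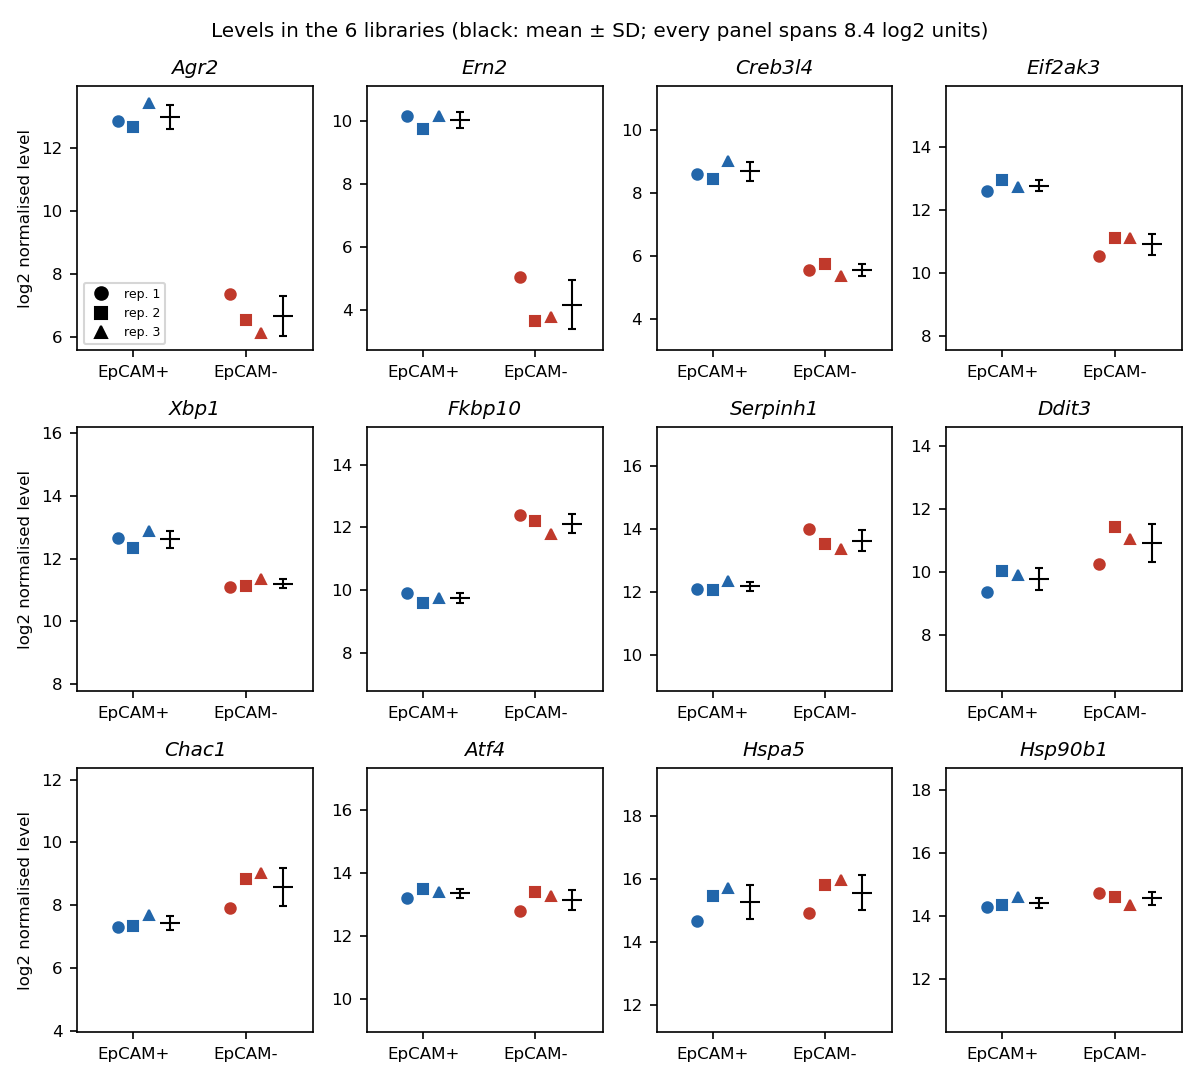
Log2 normalised levels of 12 members in each library; symbols give the replicate, blue is EpCAM+, red is EpCAM-, and black bars are the mean and SD of 3 libraries. Agr2, Ern2 and Creb3l4 are far lower in EpCAM-, Fkbp10 and Serpinh1 higher, and Atf4, Hspa5 and Hsp90b1 overlap.

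No general chaperone differed past the threshold. None of the 10 passed in limma, beside 43.4% of all tested genes, 1 had an unadjusted p under 0.05 (Sdf2l1), and their median difference was 0.087. The alternative with array weights called Dnajc3 (adjusted p = 0.0445, range over the alternatives from 0.0445 to 1), and none passed in the other 17. Estimates ran from -0.40 for Sdf2l1 to 0.30 for Canx, and the 95% intervals of all 10 lay between -0.78 and 1.17. Over all tested genes, 74.2% had a difference smaller than 1 log2 unit.

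Hspa5, the master chaperone BiP that also holds the sensors inactive (chromosome 2, 34771970 to 34777547), had the widest spread of them in both groups. It stood at 14.68, 15.48 and 15.70 in EpCAM+ and at 14.93, 15.81 and 15.98 in EpCAM- replicates 1, 2 and 3. The spread within a group, with an SD of 0.54 in EpCAM+ and 0.57 in EpCAM-, was wider than the difference of 0.29 (95% interval from -0.60 to 1.17, adjusted p = 0.568). That difference was -0.015 without EpCAM+ replicate 1, the lowest library of its group. EpCAM- replicate 1, likewise the lowest of its group, was kept in that fit. At each replicate number EpCAM- lay above EpCAM+, though the labels do not settle whether same-numbered libraries are pairs. Hsp90b1, the HSP90 of the ER (GRP94), stood at 14.27, 14.34 and 14.58 in EpCAM+ and at 14.72, 14.60 and 14.34 in EpCAM- replicates 1, 2 and 3. Its groups overlapped, with a difference of 0.15 (95% interval from -0.24 to 0.54, adjusted p = 0.487).

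Neither calnexin-cycle lectin, which hold glycoproteins during folding, passed. Calr stood between 14.36 and 14.61 in EpCAM+ and between 14.44 and 14.50 in EpCAM- libraries, a difference of 0.02 (95% interval from -0.30 to 0.34). Canx had 0.30 (adjusted p = 0.105). The J-domain partners of BiP had 0.26 (Dnajb9), 0.05 (Dnajb11) and -0.23 (Dnajc3). Small stress-induced ER proteins had -0.40 (Sdf2l1, adjusted p = 0.0856), 0.12 (Creld2) and -0.23 (Manf, a secreted protein that binds BiP).

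Protein disulfide isomerases, which form and shuffle disulfide bonds, did not pass, with Agr2 as the exception. P4hb had a difference of 0.33 (adjusted p = 0.0885) and Pdia6 of 0.24 (adjusted p = 0.137). Pdia3, the isomerase of glycoproteins, had -0.18, Pdia4 had -0.15 and Pdia5 had -0.17, with adjusted p between 0.285 and 0.537. P4hb is also a subunit of the collagen prolyl hydroxylase.

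Agr2, a disulfide isomerase relative that mucous epithelia need for making mucins (ENSMUSG00000020581, chromosome 12, 35992907 to 36004087), had the largest difference of the 43 genes. It stood at 12.84, 12.67 and 13.41 in EpCAM+ and at 7.34, 6.53 and 6.11 in EpCAM- replicates 1, 2 and 3. The lowest EpCAM+ library was more than 5 log2 units above the highest EpCAM- library. The difference was -6.31 ± 0.34 (SE, limma adjusted p = 1.72e-05), or 79.5-fold lower. A list of mucosal cargo, made of secreted and membrane mucins, trefoil factors, gastrokines, Dmbt1 and Lypd8, was chosen with earlier results known. Of its 15 tested genes, 14 fell, beside 23.1% of all tested genes, with Gkn3 at -6.42 and Dmbt1 at -6.34. Of the 14, Muc13, Tff3 and Lypd8 passed the filter on low values through EpCAM+ alone. The list's summed share of the back-transformed total was 1.35% to 2.36% in EpCAM+ and 0.0163% to 0.0304% in EpCAM- libraries. Dmbt1 alone, a secreted scavenger glycoprotein, took 1.13% to 1.63% in EpCAM+ and 0.00986% to 0.0247% in EpCAM-, and the rest of the list 0.226% to 0.730% and 0.00564% to 0.00860%. Agr2, Ern2 and these genes are known together in mucous cells of the stomach and gut, and their part in each other's change was not tested.

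The collagen chaperones rose together. Serpinh1, or HSP47, which binds procollagen in the ER (chromosome 7, 99345376 to 99353239), stood at 12.10, 12.08 and 12.35 in EpCAM+ and at 14.01, 13.52 and 13.36 in EpCAM- replicates 1, 2 and 3. Its groups were a full log2 unit apart, and it rose by 1.45 ± 0.19 (SE, limma adjusted p = 0.00086), or 2.74-fold. Fkbp10, a prolyl isomerase for procollagen (chromosome 11, 100415697 to 100424824), stood at 9.93, 9.60 and 9.77 in EpCAM+ and at 12.39, 12.20 and 11.78 in EpCAM- replicates 1, 2 and 3. It rose by 2.36 ± 0.17 (SE, limma adjusted p = 6.58e-05), or 5.13-fold, with the groups far apart. Nt5c3b, which overlaps its exons on the opposite strand, rose by 0.65.

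Collagen chains rose as well. Of 14 chains, listed with earlier results of these data known, 12 rose, beside 20.3% of all tested genes. Col3a1 rose by 5.61 and Col5a1 by 5.19. The chains took 0.0970% to 0.179% of the back-transformed total in EpCAM+ and 0.430% to 1.08% in EpCAM- libraries. Within a group, the libraries did not rank alike: in EpCAM- the chains' share was lowest in replicate 3, as were Serpinh1 and Fkbp10, but highest in replicate 2, while both chaperones were highest in replicate 1. In EpCAM+ the share was highest in replicate 1, as was Fkbp10, and Serpinh1 was highest in replicate 3. Fibroblast and pericyte markers, which include Col1a1 and Col3a1, also moved with them. Of 14 markers, 10 rose and 2 fell, beside 20.3% and 23.1% of all tested genes. Of the 10, Dpt passed the filter on low values through EpCAM- alone. The markers' summed share was 0.0129% to 0.0492% in EpCAM+ and 0.137% to 0.565% in EpCAM- libraries. Their part in the rise of the collagen chaperones was not tested. Without EpCAM+ replicate 1 and EpCAM- replicate 3, both collagen chaperones passed, and they were the 2 members that still rose.

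Changes among the translocation genes were small. Of 7 members, 1 rose and 1 fell (28.6%, beside 43.4% of all tested genes). Differences of the 7 lay between -0.71 and 0.46, with a median of 0.18. The Sec61 channel subunits, through which new chains enter the ER, did not pass, with -0.17 (Sec61a1), -0.05 (Sec61b) and 0.18 (Sec61g). In the translocon-associated complex, Ssr3 rose from 13.38, 13.27 and 13.27 in EpCAM+ to 13.94, 13.71 and 13.65 in EpCAM- replicates 1, 2 and 3, by 0.46 ± 0.12 (SE, limma adjusted p = 0.0227). Ssr4, another subunit of the same complex, fell from 10.88, 10.67 and 10.99 to 10.38, 10.08 and 9.93, by 0.71 ± 0.15 (SE, limma adjusted p = 0.00751).

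For both subunits the groups did not overlap, but Ssr3 did not pass without EpCAM+ replicate 1 (adjusted p = 0.0546), 2 (0.0727) or 3 (0.0797), with a range from 0.0121 to 1. Ssr4 did not pass with EpCAM+ replicate 1 and EpCAM- replicate 3 both left out (adjusted p = 0.074, range from 0.00185 to 1). Ssr1 had 0.39 (adjusted p = 0.0538) and passed without EpCAM- replicate 2 (adjusted p = 0.0215, range from 0.0215 to 1), and Ssr2 had 0.21 (adjusted p = 0.307).

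By broad class, 3 of 18 matched folding members passed (16.7%), 9 of 18 sensors, factors, targets and degradation genes (50%) and 2 of 7 translocation members (28.6%), beside 43.4% of all tested genes. Whether these shares differ was not tested. Summed over the 43 members, the back-transformed share of the total was 0.937%, 0.966% and 1.13% in EpCAM+ and 1.05%, 1.12% and 1.16% in EpCAM- replicates 1, 2 and 3, so the groups overlapped. The chaperones alone took 0.359%, 0.412% and 0.498% in EpCAM+ and 0.422%, 0.504% and 0.533% in EpCAM-. Both sums were lowest in replicate 1 and highest in replicate 3 of each group.

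The members leaned to one EpCAM+ library. EpCAM+ replicate 3 was the highest of its group for 28 of 43 members (65.1%), against 29.1% of all tested genes. Among EpCAM- libraries, replicate 1 was the highest for 18 members (41.9%), against 42.0% of all tested genes. The median SD among the members was 0.16 in EpCAM+ and 0.19 in EpCAM-, beside 0.16 and 0.23 over all tested genes.

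The members with an ERSE did not pass the test. None of the 8 was called in limma, none had an unadjusted p under 0.05, and their differences lay between -0.23 for Dnajc3 and 0.30 for Canx. Array weights called 2 of them, Dnajc3 and Syvn1 (adjusted p = 0.0269), and leaving out EpCAM- replicate 1 called Syvn1 (adjusted p = 0.0216). Of the 19 genes with an ERSE that were tested anywhere in the table, 1 rose and 2 fell (15.8%, beside 43.4% of all tested genes), with a median of 0.022. The degradation gene Derl3 was among those that fell, at -0.65 (adjusted p = 0.039), and was chosen after its value was seen. Of the 86 tested genes with TGATGCAA, 20 rose and 34 fell (62.8%, beside the same 43.4%). For ERSE-II, 1 of 8 tested genes rose and 2 fell (37.5%). For TGACGTGG, 22 of 113 rose and 22 fell (38.9%). Whether any of these shares differs from that of all genes was not tested.

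Other genes of the pathway, from lists that hold none of the 44, were called about as often as any gene. Of 150 such genes tested, 42 rose and 27 fell (46.0%), beside 43.4% of all tested genes, of which 20.3% rose and 23.1% fell. Their median was 0.079, and the counts by list that follow are to be read against these shares. For the folding list, 9 of 30 rose and 6 fell. Uggt2, a glycoprotein folding sensor, rose by 3.19 and the ER prolyl isomerase Fkbp7 by 2.57, while the sulfhydryl oxidase Qsox1 fell (-0.94). The pancreas-enriched isomerase Pdia2 passed the filter on low values through EpCAM+ alone, with a mean log2 level of 5.45 there and 2.10 in EpCAM-. For degradation, 6 of 23 rose and 5 fell, with Nploc4 at 0.69, Fam8a1 at 0.50, Os9 at -0.97 and Rnf5 at -0.71. Fam8a1 lost its call without EpCAM+ replicate 3 (adjusted p = 0.075) or EpCAM- replicate 3 (adjusted p = 0.0794), and Rnf5 with EpCAM+ replicate 1 and EpCAM- replicate 3 both left out (adjusted p = 0.0768). Over the alternatives their adjusted p ranged from 0.0142 to 1 and from 0.00138 to 1.

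In the integrated stress response, which ATF4 carries out, 10 of 29 genes rose and 5 fell. The serine synthesis enzyme Phgdh rose by 1.59 and the cystine transporter Slc7a11 by 1.49. Stc2, a secreted glycoprotein (-2.80), and the tryptophan tRNA ligase Wars (-1.62) fell. Among genes that process the sensors, 1 of 8 rose, Mbtps1 (0.45), the protease that cuts ATF6, and 3 fell, with the ER membrane protein Tmbim6 at -0.66. With the same pair of libraries left out, neither Mbtps1 (adjusted p = 0.094, range over the alternatives from 0.00304 to 1) nor Tmbim6 (0.0953, range from 0.00153 to 1) passed.

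For targeting and translocation outside the members, 7 of 19 rose, led by Tram2 (1.40), which is tied to collagen synthesis, and the second channel gene Sec61a2 (1.17). Subunits of the signal peptidase, which trims new chains, did not move together: Sec11a (-0.98) and Spcs2 (-0.80) fell, Spcs3 rose by 0.77, and Spcs1 (0.02) and Sec11c (0.01) did not pass. Spcs2 did not pass with EpCAM+ replicate 1 and EpCAM- replicate 3 both left out (adjusted p = 0.108, range over the alternatives from 0.000415 to 1). In the oligosaccharyltransferase, which attaches glycans, 1 of 11 rose, Magt1 (0.49). For vesicle coats and cargo receptors, 8 of 30 rose and 6 fell. Copz2 (1.72) and Sec23a rose most, and Sec16b (-1.38) and the KDEL receptor Kdelr1 (-0.98), which returns chaperones to the ER, fell most. Another KDEL receptor, Kdelr3, rose by 1.13, and Kdelr2 had 0.21 (adjusted p = 0.241). These receptors and the further signal peptidase subunits were chosen after their values were seen. Sec16b lost its call without EpCAM+ replicate 3 (adjusted p = 0.0584, range from 0.000632 to 0.754) and Kdelr1 with that pair left out (adjusted p = 0.0653, range from 0.000317 to 1).

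**Figure D4:**
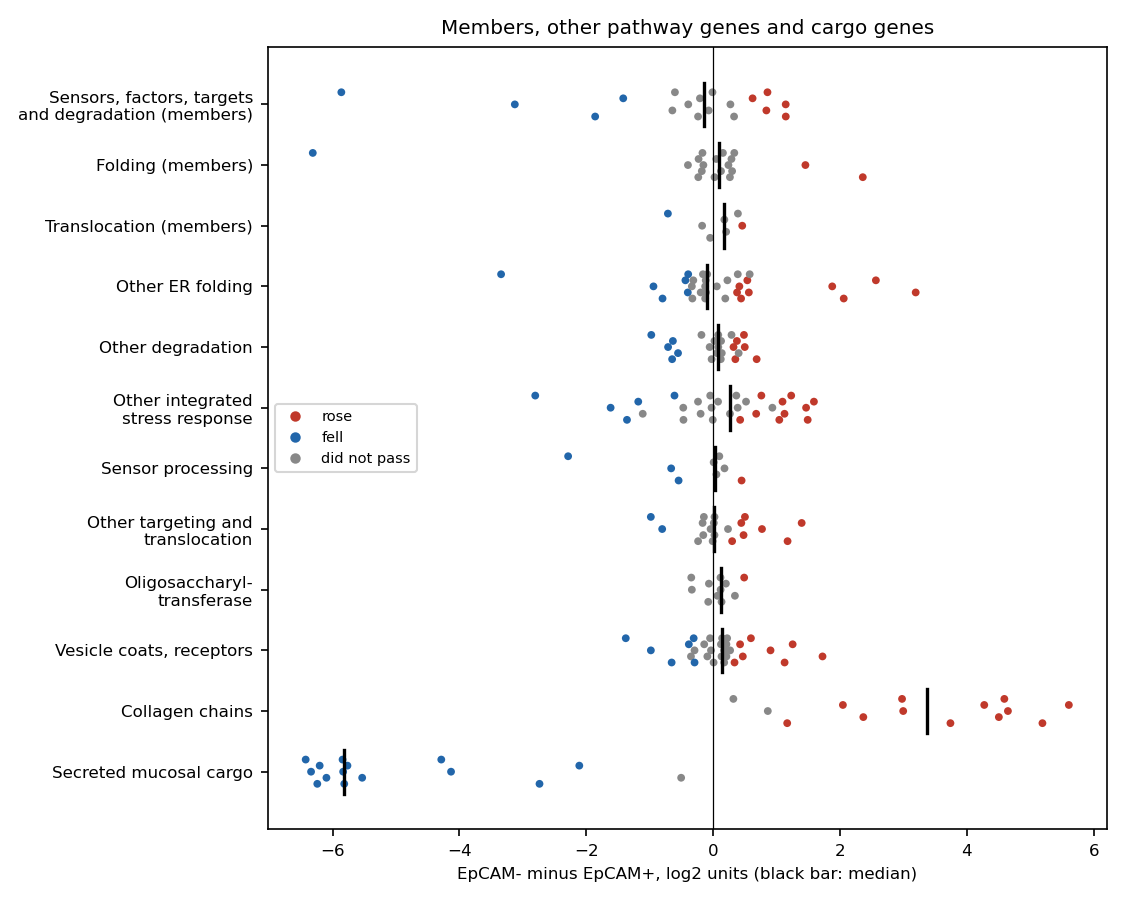
Differences between EpCAM- and EpCAM+ in log2 units for the members by broad class, for other pathway genes and for collagen and mucosal cargo; each point is a tested gene, coloured by its call, and black bars are medians. The pathway lists centre near 0 while collagen chains lie to the right (median 3.37) and mucosal cargo to the left (median -5.82).

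Markers of other cells that a sort of YFP-positive cells could hold also differed. Their counts are to be read beside the 20.3% of all tested genes that rose and the 23.1% that fell. Acinar cells are rich in ER, and 15 of 17 of their markers fell, 5 of them past the filter through EpCAM+ alone, from 0.238% to 0.497% of the back-transformed total in EpCAM+ to between 0.00255% and 0.00345% in EpCAM- libraries. Cpa1, an acinar enzyme gene, was at 13.38, 12.51 and 13.33 in EpCAM+ and at 5.69, 5.83 and 5.49 in EpCAM- replicates 1, 2 and 3. EpCAM+ replicate 2 had the lowest acinar share, and within EpCAM+ Xbp1, Ern2, Agr2 and Creb3l4 were lowest there while Eif2ak3 was highest there. That library was the lowest of its group for 46.5% of the members and 37.3% of all tested genes. It was the highest for 20.9% and 32.2%. For islet cells, 9 of 9 tested markers fell, 5 of them past the filter through EpCAM+ alone, from a share of 0.00878% to 0.0462% to one of 0.000407% to 0.000614%. Macrophage and leukocyte markers fell for 10 of 11 tested, with shares of 0.0161% to 0.0413% in EpCAM+ and 0.00385% to 0.00458% in EpCAM-.

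Plasma and B cell markers, another ER-rich type, fell for 3 of 7 tested, with shares of 0.00270% to 0.00578% in EpCAM+ and 0.00166% to 0.00192% in EpCAM-. Of the 12 listed, 7 were tested, and the largest fall was -4.59. Among the 3 that fell, Pou2af1 passed the filter on low values through EpCAM+ alone. Tnfrsf17, a defining gene of the list, was at the lowest values of the table in all libraries. Endothelial markers took 0.000582% to 0.000968% of the total, and 1 of 6 tested rose. The part of any of these cells in the fall of Xbp1, Ern2, Eif2ak3, Creb3l4 and Agr2 was not tested.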

How the data were processed

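Per the labels' protocols, libraries of sorted cells came from the KAPA mRNA HyperPrep kit and were read on a HiSeq machine. The submitters' processing notes name DESeq2 1.24.0, RSEM, STAR 2.5.2 and build GRCm38, with no role or order. The deposited values are log2 levels normalised by the authors, with transform, annotation and strand setting not given in the sources used here. A log2 transform that shrinks low values would reduce the differences of weakly expressed genes.

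Of 25978 genes, the 15783 whose back-transformed values averaged 10 or more were tested as deposited with limma 3.58.1 (R 4.3.3), using a mean-variance trend and no covariate. P-values are two-sided and adjusted by Benjamini-Hochberg over all tested genes. With 3 libraries against 3, an exact permutation test cannot go below 0.1, so none was run. Members and lists were chosen with earlier results of these data known. Values in all libraries are given for members past the test with at least 1 log2 unit, for key regulators and for paralogues, and up to 2 rises and 2 falls are named per list. Symbols and coordinates come from GENCODE M21 (GRCm38). Of the listed genes outside the members, Srp54b had no match. Exons of 13 members overlap those of another gene. The fit was first tested on simulated data. There, 4% of the genes given a true log2 change of 0.5 passed, and 38% of those given a change of 1. The share was 74% at a change of 2 and 96% at 4, and 3.64% of the calls were false. Only 50 genes were changed at each size, among 15783, while 43.4% of tested genes were called in the data. The adjusted threshold is stricter when fewer genes change, so these shares do not give the recovery in the data. Small true changes were mostly missed in the simulation, and a gene that did not pass is not shown to be unchanged. A further allele of the genotype is not reported here.

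The 18 alternatives changed the pseudocount (0.5, 1 or 5, after back-transforming), the filter (none, or 50) and the scaling (TMM formula, upper quartile or quantiles). They also added the replicate number as a block, array weights or a test against a log2 change of 1, or left out libraries.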

Additional observations from a re-analysis of the deposited data

How the results depend on the processing

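Depth is unknown, so the spread between 3 libraries limits every call. Of the 14 called members, 5 (Ern2, Eif2ak3, Creb3l4, Agr2 and Fkbp10) passed in all 18 alternatives, and 36 of 43 members kept their sign in all of them. The signs of Trib3, Sel1l, Hspa5, Calr, Dnajb11, Creld2 and Sec61b changed in at least 1, none of them called in any. Where a call changed and no fewer samples were used, the cause was not tested.

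With a minimum log2 fold change of 1, which asks for larger changes by construction, 1865 genes passed (581 rose, 1284 fell). The members called were then 5 (1 rose), with 1 rising folding member, 3 sensors and targets (0 rising), 0 translocation members (0 rising, 0 falling) and 6 other pathway genes (3 and 3). Without EpCAM+ replicate 1 and EpCAM- replicate 3, with 4 samples left, 4369 genes passed (1907 rose), 8 members (2 rose), 5 sensors and targets (0 rose), 0 translocation members (0 rose, 0 fell) and 33 other pathway genes (23 rose, 10 fell). With array weights, 2 folding members fell in place of 1. Of translocation members, 2 rose with TMM scaling, upper quartile scaling, the replicate block or array weights. Leaving out 1 library at a time gave 4987 to 7300 genes (2134 to 3325 rose, 2853 to 3975 fell) and 11 to 16 members (5 to 9 rose, 6 to 7 fell). It gave 7 to 11 sensors and targets (3 to 6 rose, 4 to 5 fell), 1 to 3 translocation members (0 to 2 rose) and 45 to 72 other pathway genes (28 to 40 rose, 17 to 32 fell). The lowest of these for other pathway genes, 45, came without EpCAM+ replicate 3. Quantile normalisation moved the median of all tested genes to 0.13, and with it Ssr3, at 0.34, did not pass (adjusted p = 0.0595) while Sec61g did (adjusted p = 0.0437).

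With the replicate block, 7090 genes and 17 members passed, and Creb3l1 (adjusted p = 0.0163), Herpud1 (adjusted p = 0.0361) and Ssr1 (adjusted p = 0.0358) joined the calls. Deviations of same-numbered libraries correlated at 0.41, 0.0438 and 0.165 for numbers 1, 2 and 3, with 0.41 the highest of all combinations. EpCAM+ replicate 2 correlated best with EpCAM- replicate 3 (0.23), and EpCAM+ replicate 3 with EpCAM- replicate 2 gave 0.134. Other combinations of different numbers ran from -0.337 to -0.146. The labels do not settle the pairing, so the numbers were not taken as pairs in the main fit.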
